A study of Mus musculus with 2 samples.

Results

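Total RNA of the gastrocnemius, the large calf muscle that ends in the Achilles tendon, was examined for 10 genes known from tendon and aponeurosis, the flat tendon sheet on and inside the muscle. The members were a list of symbols (Tnmd, Scx, Mkx, Fmod, Thbs4, Comp, Prg4, Kera, Chad and Cilp2), each matched by the symbol that the deposited transcript names carry, and all 10 were found among the 55536 annotated genes. The series holds 1 group of 2 libraries from male B6CASTF1/J mice, F1 hybrids of C57BL/6J and CAST/EiJ, whose age the labels give as 18 to 20 months. No treatment or engineered allele is labelled and no control group exists, so the only differences that can be measured are between the libraries and between the authors' quantifications of the same reads. Per the labels these are biological replicates 2 and 1, from males with different numbers but under 1 shared donor record, so whether they came from separate animals is not settled, and the spread between them may be technical.

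Tendon is built from parallel collagen fibrils laid down by tenocytes. The transcription factors scleraxis and mohawk guide these cells, the membrane protein tenomodulin marks mature ones, and small leucine-rich proteoglycans such as fibromodulin control how collagen molecules assemble into fibrils. Thrombospondins, chondroadherin and lubricin belong to the matrix around the fibrils and to gliding or compressed surfaces. In a muscle sample these RNAs can come from tendon, aponeurosis and connective tissue taken with the fibres, and in bulk RNA fewer cells of a type and less RNA per cell cannot be told apart.

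The libraries held 44919441 expected counts in replicate 2 and 40795740 in replicate 1, the spike-in RNAs added to each library included. Skeletal actin Acta1, a marker of skeletal muscle fibres, stood at 18064 TPM in replicate 2 and 20725 TPM in replicate 1. TPM is a level scaled by transcript length and by library. Markers of slow fibres, described below, differed between the libraries, with sums of 2369 TPM in replicate 2 and 222 TPM in replicate 1. The authors quantified each library along 2 routes, a first from a transcriptome alignment, used here unless stated, and a second from the reads. The tested genes were the 14965 with a mean count of at least 10, among them all 10 tendon genes. The biological coefficient of variation between the libraries, the spread beyond counting noise, was 0.227 over these genes.

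Fmod and Thbs4 were the most abundant of the 10 genes, and Cilp2 and Mkx the least. The summed level of the 10 genes was 123.9 TPM in replicate 2 and 84.1 TPM in replicate 1 (104 ± 28.1 TPM, SD, n = 2). Fmod and Thbs4 together held 69.1% of that sum in replicate 2 and 69.2% in replicate 1. By mean level per length the order was Fmod, Thbs4, Chad, Prg4, Comp, Scx, Tnmd, Kera, Cilp2 and Mkx. The libraries' ranges did not overlap at 3 of the steps in this order, those between Thbs4 and Chad, between Tnmd and Kera, and between Kera and Cilp2. The other neighbours overlapped, and Prg4 and Comp changed places, Prg4 being the higher in replicate 2 and Comp in replicate 1. The places of Prg4 and Scx depended on the length used. With that of the longest transcript, an alternative chosen after seeing the data, Prg4 averaged 2.53 TPM, below Comp (4.9997 TPM) and Tnmd (3.65 TPM). Scx then averaged 2.17 TPM, below Kera (2.29 TPM). For these genes that length is not the one mostly in use. Prg4-208, the longest of Prg4, was assigned 0 counts in both libraries. Scx-202, the longest of Scx and unspliced, held 3.19% of Scx TPM in replicate 2 and 8.98% in replicate 1. Fmod lay above 91.6% of the 16223 nuclear protein-coding genes with any TPM, Thbs4 above 90.03%, Chad above 69.5%, Tnmd above 54.2% and Mkx above 36.5%. At least 1 TPM in both libraries was reached by 9 of the 10, Mkx being the exception.

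**Figure D1:**
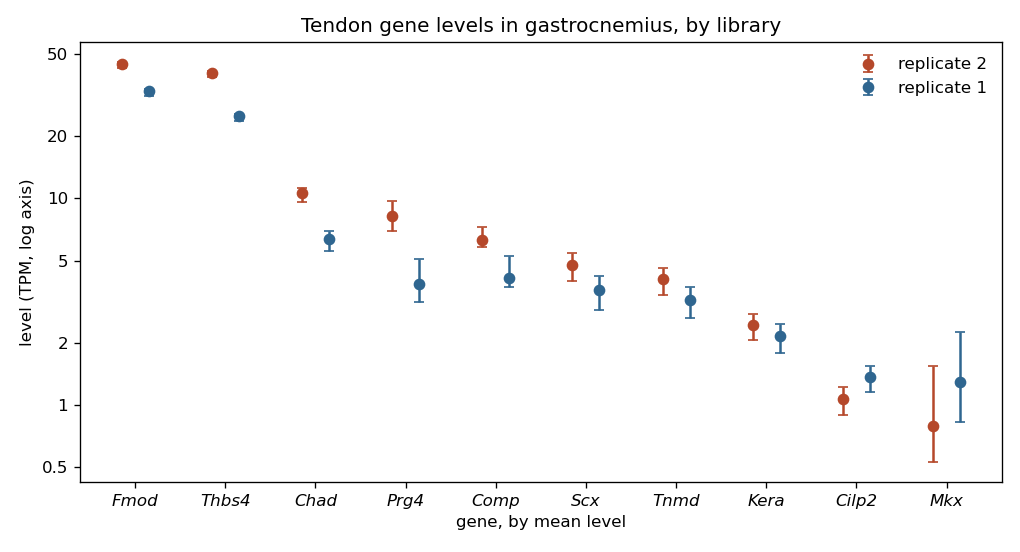
Level of each tendon gene in TPM (log axis) in replicate 2 and replicate 1, ordered by mean level, where bars are the authors' deposited interval of TPM within each library. Fmod and Thbs4 lie between 25.0 and 45.0 TPM and the other 8 genes at or under 10.6 TPM, with Cilp2 and Mkx near 1 TPM.

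Between the libraries, 5 tendon genes were higher in replicate 2 beyond counting error, Fmod, Thbs4, Chad, Prg4 and Comp, and 1 was lower, Cilp2. The test was a 2-sided exact binomial test of rounded counts with library sizes scaled by TMM (a scaling that takes most genes as equal between libraries) and Benjamini-Hochberg adjustment over all genes tested. By the same test 18.9% of all genes tested were higher in replicate 2 and 16.5% were lower, so calls were common throughout these libraries. Among the 8941 tested protein-coding genes within the members' range of mean level, 19.5% were higher and 17.8% lower. With a fold of at least 2 required as well, Prg4 alone was called, higher in replicate 2, against 4.51% of all genes called higher and 1.72% called lower. The test compares these libraries, holds counting error only and says nothing of conditions. The median log2 ratio of TPM + 0.5 over the 10 genes was 0.40 and over all genes tested 0.05, with 8 of 10 tendon genes and 57.8% of all genes above 0. In TMM-scaled counts 9 of the 10 and 51.3% of all genes tested had a ratio above 1, Mkx among the 9 at only 1.02. By TPM of the second quantification 7 of the 10 lay above 0. None of the 10 was called by edgeR's exact test, against 1.47% of all genes called higher and 0.354% called lower. At an unadjusted p below 0.05 it had Prg4 alone of the 10, and 817 of the 14965 genes. Its spread was a common dispersion estimated from these same libraries taken as 1 group, so the difference it tests is also part of that spread.

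**Figure D2:**
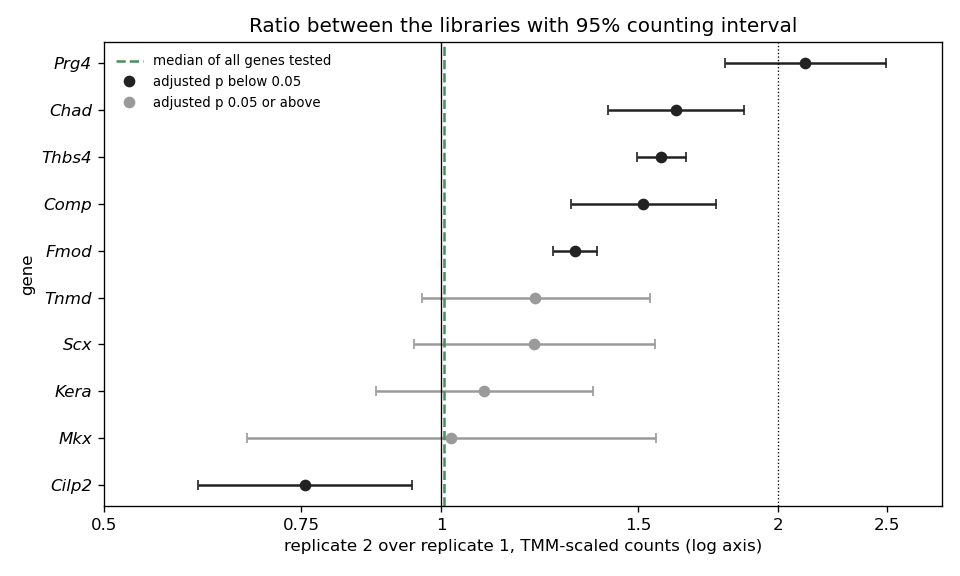
Ratio of replicate 2 to replicate 1 in TMM-scaled counts (log axis) for each tendon gene, with its 95% counting interval, dark where the adjusted p was below 0.05. Prg4 lies highest at 2.11 and Cilp2 lowest at 0.757, while the intervals of Tnmd, Scx, Kera and Mkx include 1.

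Scx and Mkx encode the transcription factors. Scx (ENSMUSG00000034161.8, mm10 chromosome 15, 76457452 to 76459458, plus strand), the basic helix-loop-helix factor scleraxis, had 4.75 TPM in replicate 2 and 3.59 TPM in replicate 1, from 159 and 116 counts. Its ratio was 1.21 with a 95% counting interval from 0.947 to 1.55 (exact binomial adjusted p = 0.253), so a difference was not detectable at this depth. The gene lies wholly inside Bop1, a ribosome biogenesis gene on the opposite strand with 9.22 and 10.1 TPM (730 and 744 counts), but shares no exonic base with it. The sources used here do not say whether counting used strand, so the reads given to Scx may be uncertain. Of Scx TPM, 96.8% and 91.0% fell to the spliced coding transcript Scx-201 and the rest to Scx-202, an unspliced form of 2007 nt that keeps the intron. The unspliced form had more of the second quantification, 8.48% in replicate 2 and 15.1% in replicate 1. In all 4 values Scx-201 led.

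Mkx (ENSMUSG00000061013.6, mm10 chromosome 18, 6934518 to 7004780, minus strand), the homeobox factor mohawk, was the least abundant of the 10 genes, at 0.79 TPM in replicate 2 and 1.29 TPM in replicate 1. Its counts did not follow those levels: 52 in replicate 2 and 45 in replicate 1, a ratio of 1.02 with an interval from 0.671 to 1.56 (exact binomial adjusted p = 1). The TPM divides by a length averaged over the transcripts in use, which was 1991 nt in replicate 2 and 1202 nt in replicate 1. That average moved with Mkx-203, a retained-intron fragment of 425 nt to which 3.08 and 9.72 expected counts were assigned, or 34.4% and 73.1% of the gene's TPM. The coding transcript Mkx-201, of 3650 nt, held 45.9 and 34.5 counts. The second quantification gave Mkx-203 no reads and assigned 3.09 and 6.17 counts to Mkx-202, a short coding transcript to which the first had assigned none. With the length of the longest transcript in place of the average, Mkx stood at 0.423 TPM in replicate 2 and 0.401 TPM in replicate 1. No direction between the libraries can be read from its TPM.

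Tnmd (ENSMUSG00000031250.8, mm10 chromosome X, 133850980 to 133865577, plus strand) encodes tenomodulin, the membrane protein that marks mature tenocytes. It had 4.06 TPM in replicate 2 and 3.23 TPM in replicate 1, from 176 and 128 counts, all on its single annotated transcript. The ratio was 1.21 with an interval from 0.961 to 1.54 (exact binomial adjusted p = 0.198). The deposited intervals, 3.41 to 4.597 TPM and 2.65 to 3.74 TPM, overlapped. The level ratio of Tnmd to Scx was 0.855 in replicate 2 and 0.900 in replicate 1. These values lie close together, but no interval was computed for them and the counts of both genes were low.

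Promoter sequences are shown for Fmod, Thbs4 and Chad, the 3 most abundant tendon genes, whose start in RefSeq falls on the same base as the start of the gene in the annotation the authors used. Each run is the 250 bases before that start (RefSeq, GRCm38.p6, the mm10 build), 5′ to 3′ on the gene's own strand. Capitals mark the E-box CANNTG, the 6-base word that helix-loop-helix factors such as scleraxis bind. Fmod is on the plus strand at chr1:134037004-134037253, Thbs4 on the minus strand at chr13:92794819-92795068 and Chad on the plus strand at chr11:94564797-94565046.
Fmod: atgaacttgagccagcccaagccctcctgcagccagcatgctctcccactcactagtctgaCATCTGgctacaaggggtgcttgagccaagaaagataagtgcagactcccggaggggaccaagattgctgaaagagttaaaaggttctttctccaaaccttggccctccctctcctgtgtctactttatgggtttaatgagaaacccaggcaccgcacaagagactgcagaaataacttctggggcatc
Thbs4: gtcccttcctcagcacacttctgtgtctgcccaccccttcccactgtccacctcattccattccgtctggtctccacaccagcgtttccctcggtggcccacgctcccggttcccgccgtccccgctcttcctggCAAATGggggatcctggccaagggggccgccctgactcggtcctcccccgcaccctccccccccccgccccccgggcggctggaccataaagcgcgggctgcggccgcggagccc
Chad: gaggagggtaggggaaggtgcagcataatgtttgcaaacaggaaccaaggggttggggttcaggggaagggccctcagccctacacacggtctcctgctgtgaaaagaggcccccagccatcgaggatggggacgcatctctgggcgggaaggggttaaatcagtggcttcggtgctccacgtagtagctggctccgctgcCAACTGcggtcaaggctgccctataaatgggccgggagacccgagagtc

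Each of the 3 windows held 1 E-box, at bases -189 to -184 before Fmod, -115 to -110 before Thbs4 and -49 to -44 before Chad. Of the 6 tendon genes with a RefSeq promoter entry (those 3, Tnmd, Kera and Cilp2), 4 held an E-box, against 66.2% of all 32851 promoter windows of the same length searched on both strands. The Smad half-site GTCTG was in 3 of the 6, with 2 copies each in Fmod, Thbs4 and Cilp2, against 42.2% of all windows. The GC box GGGCGG was in 3 of the 6, Thbs4 with 3 copies, against 32.7%. Thbs4 was the richest of the 3 printed windows in G and C at 70.8%, with Chad at 60.4% and Fmod at 51.2%. Chad alone of the 6 held the TATA box TATAAA, at bases -28 to -23, a word found in 12.4% of all windows. Kera alone held CCAAT, in 3 copies, against 33.8%, and the AP-1 word TGANTCA was in none, against 6.75%. A match is a description of letters, and no binding was measured.

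Fmod and Kera encode keratan sulfate proteoglycans of the small leucine-rich family. Fmod (ENSMUSG00000041559.7, mm10 chromosome 1, 134037254 to 134048277), fibromodulin, binds collagen and controls fibril thickness, and was the most abundant of the 10 genes. It had 45.0 TPM in replicate 2 and 33.2 TPM in replicate 1 (39.1 ± 8.31 TPM, SD, n = 2), from 4682 and 3138 counts. The ratio was 1.32 with an interval from 1.26 to 1.38 (exact binomial adjusted p = 5.31e-32). Of its TPM the first quantification placed 99.65% and 98.96% on the full-length transcript Fmod-201. The second placed 82.3% and 80.3% there and the rest on Fmod-202, a transcript of 532 nt, although that transcript held only 74.3 and 57.5 of its counts. Per length, Fmod stood near the fibrillar collagen Col1a1 (27.42 and 40.98 TPM) and below the proteoglycan decorin, Dcn (159 and 139 TPM).

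Kera (ENSMUSG00000019932.8, mm10 chromosome 10, 97606879 to 97613692, plus strand), keratocan, is best known from the cornea and is also found in tendon. It had 2.43 TPM in replicate 2 and 2.15 TPM in replicate 1, from 183 and 148 counts, with a ratio of 1.09 and an interval from 0.874 to 1.37 (exact binomial adjusted p = 0.613). The second quantification counted 196 and 180 reads, so that it lay slightly lower in replicate 2 there, at a ratio of 0.961. The level ratio of Fmod to Kera was 18.5 in replicate 2 and 15.4 in replicate 1.

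Thbs4 and Comp belong to the pentameric thrombospondins, which bind collagen and other matrix proteins. Thbs4 (ENSMUSG00000021702.7, mm10 chromosome 13, 92751590 to 92794818), thrombospondin 4, is found in tendon and at the myotendinous junction. It had 40.7 TPM in replicate 2 and 25.0 TPM in replicate 1 (32.9 ± 11.1 TPM, SD, n = 2), from 4360 and 2448 counts. The ratio was 1.57 with an interval from 1.496 to 1.65 (exact binomial adjusted p = 1.16e-72), and every read fell to the coding transcript Thbs4-201 of 22 exons in both quantifications. Comp (ENSMUSG00000031849.9, mm10 chromosome 8, 70373558 to 70382066, plus strand), cartilage oligomeric matrix protein, had 6.29 TPM in replicate 2 and 4.10 TPM in replicate 1, from 489 and 285 counts. Its ratio was 1.51 with an interval from 1.31 to 1.76 (exact binomial adjusted p = 1.33e-07), and the coding transcript Comp-201 held 96.4% and 94.0% of its TPM. The level ratio of Thbs4 to Comp was 6.47 in replicate 2 and 6.10 in replicate 1, so both genes were higher in replicate 2 in near proportion.

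Chad (ENSMUSG00000039084.8, mm10 chromosome 11, 94565047 to 94569127) encodes chondroadherin, a protein of the small leucine-rich family that binds collagen and cells in cartilage and tendon. It had 10.6 TPM in replicate 2 and 6.33 TPM in replicate 1 (8.47 ± 3.03 TPM, SD, n = 2), from 580 and 316 counts. The ratio was 1.62 with an interval from 1.41 to 1.86 (exact binomial adjusted p = 2.18e-11). Chad lies wholly inside Acsf2, an acyl-CoA synthetase gene on the opposite strand with 0.87 and 0.64 TPM, and shares no exonic base with it. Whether counting used strand is not given in the sources used here.

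Prg4 (ENSMUSG00000006014.16, mm10 chromosome 1, 150449412 to 150466165, minus strand) encodes lubricin, the mucin-like glycoprotein that lets tendon and joint surfaces glide. It differed most between the libraries, with 8.26 TPM in replicate 2 and 3.86 TPM in replicate 1 (6.06 ± 3.11 TPM, SD, n = 2), from 500 and 209 counts. The ratio was 2.11 with an interval from 1.79 to 2.49 (exact binomial adjusted p = 6.24e-20), so that a ratio under 2 lies inside the interval. Its 3′ end overlaps that of Tpr, a nuclear pore gene on the opposite strand with 42.8 and 37.7 TPM, by 204 exonic bases of the 4280 that Prg4 covers, and reads there may be uncertain.

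The 8 annotated Prg4 transcripts are all coding, and their shares of TPM differed between the libraries. In replicate 2, Prg4-205 of 577 nt held 30.0% of TPM and Prg4-207 of 1480 nt 28.9%, a near tie that rests on 41.03 and 114 counts. In replicate 1, Prg4-207 led with 50.7% and Prg4-205 held 24.8%. By the second quantification Prg4-205 held 43.8% and 35.8%, and Prg4-207 24.8% and 41.5%. Grouped after their values were seen, the 4 transcripts with a coding length over 2000 nt (2895 to 3663 nt) took 68.0% of Prg4 counts in replicate 2 and 52.2% in replicate 1, or 72.9% and 57.7% by the second quantification. By TPM, which weighs short transcripts more per read, the same group held the minority, 33.7% and 24.5%, or 31.3% and 22.7% by the second quantification. Counts of the long group were 2.75-fold higher in replicate 2 and counts of the short group 1.41-fold higher, or 2.57-fold and 1.30-fold in the second quantification. Within the long group the assignment was less settled. Prg4-202 took 198 counts in replicate 2 and 0 in replicate 1, where Prg4-203 took 38.4. The second quantification put 205 and 52.9 counts on Prg4-202 and none on Prg4-203.

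**Figure D3:**
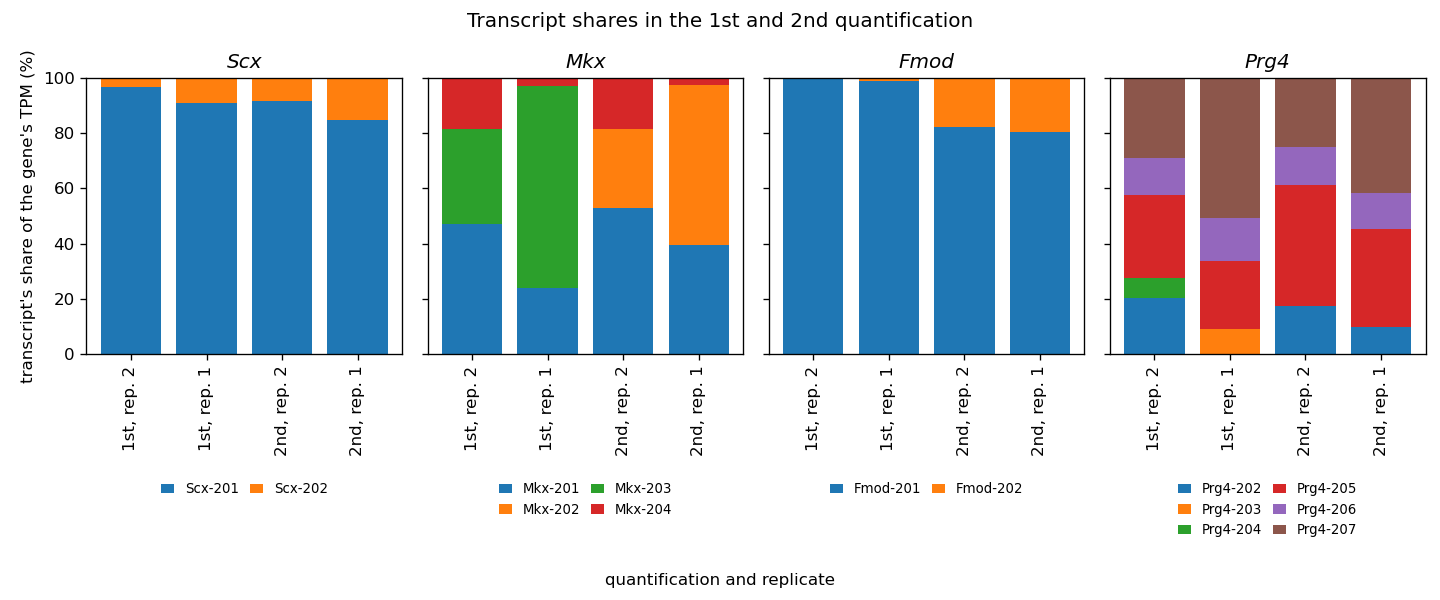
Share of each gene's TPM (%) held by its transcripts for Scx, Mkx, Fmod and Prg4, in the first quantification (replicate 2, replicate 1) and the second (replicate 2, replicate 1). Scx-201 and Fmod-201 lead in every bar, while Mkx-203 holds 34.4% and 73.1% in the first quantification and is absent from the second.

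Cilp2 (ENSMUSG00000044006.8, mm10 chromosome 8, 69880369 to 69887687, minus strand) encodes cartilage intermediate layer protein 2, a matrix protein of cartilage and of dense connective tissue. It was the single tendon gene called lower in replicate 2, with 1.07 TPM in replicate 2 and 1.37 TPM in replicate 1, from 156 and 182 counts on its single transcript. The ratio was 0.757 with an interval from 0.607 to 0.942 (exact binomial adjusted p = 0.0363). The call was lost with total counts, with spike-in scaling and with no filter on low counts. Its relative Cilp went the other way, with 8.69 TPM in replicate 2 and 3.52 TPM in replicate 1, 2.39-fold higher in replicate 2.

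The authors' second quantification, made from the reads and not from the transcriptome alignment, was set beside the gene table on a common scale, TPM over nuclear protein-coding genes. The first quantification over the second lay between 0.931 and 1.28 for 9 of the genes in both libraries. Fmod was lower in the first (0.947 in replicate 2, 0.935 in replicate 1) and Thbs4 higher (1.15 and 1.16). Mkx stood apart, at 1.24 in replicate 2 and 1.93 in replicate 1. In read counts the first over the second ran from 0.822 (Kera in replicate 1) to 1.17 (Scx in replicate 1), with Mkx at 0.929 and 1.05. The second quantification called the same 5 genes higher in replicate 2 and Cilp2 lower.

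**Figure D4:**
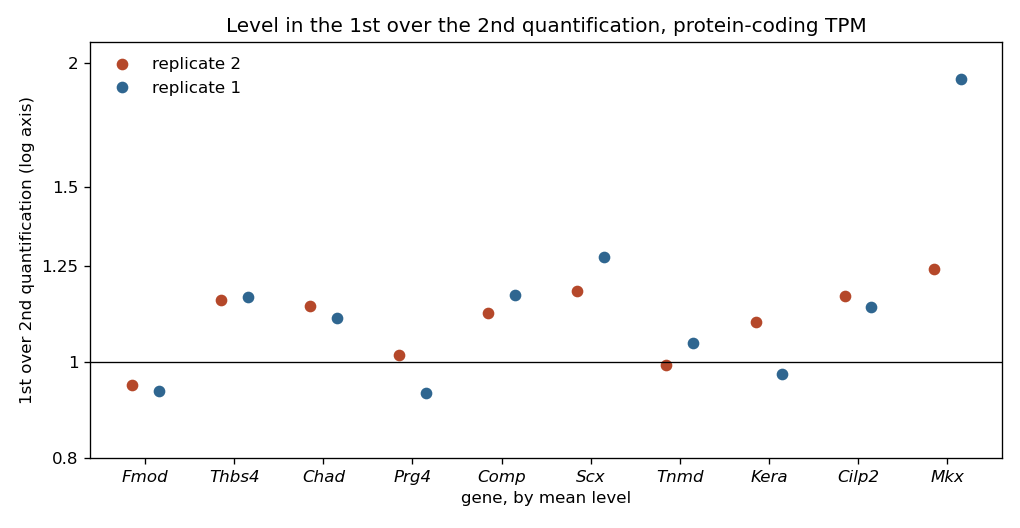
Level of each tendon gene in the first over the second quantification (log axis), on TPM over nuclear protein-coding genes, for replicate 2 and replicate 1. Mkx in replicate 1 lies at 1.93, and the other genes lie between 0.931 and 1.28 in both libraries.

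The matrix around these genes did not move as one between the libraries. For the list counts that follow, the shares of all genes tested were 18.9% higher and 16.5% lower, 44.6% and 5.94% with spike-in scaling, and 22.05% and 13.2% with total counts. Of 13 listed collagens of tendon and its sheaths, 9 were lower in replicate 2 and 2 higher, with a list median log2 ratio of -0.23. Col3a1 (30.5 TPM in replicate 2, 48.2 TPM in replicate 1) and Col1a2 (34.4 and 43.6 TPM), chains of the fibril collagens, were among the lower ones. With spike-in scaling the collagen calls were 6 lower and 3 higher. Of 10 tested genes of the small leucine-rich proteoglycan family other than Fmod, Kera and Chad, 5 were higher in replicate 2 and 0 lower (9 and 0 with spike-in scaling), with a median of 0.36. Decorin (Dcn, 159 and 139 TPM) and the related Bgn (29.5 and 12.3 TPM, 2.07-fold) were among them. These and the following lists were drawn up with earlier results of these libraries known, so their counts are a description.

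Of 10 thrombospondin, CILP, tenascin and matrilin relatives, 6 were higher in replicate 2 and 1 lower (8 and 0 with spike-in scaling), with a median log2 ratio of 0.47. Thbs1 had 12.3 TPM in replicate 2 and 3.02 TPM in replicate 1, 3.89-fold higher, and Thbs2 had 5.02 and 2.28 TPM, 2.11-fold higher. The most abundant of them, the collagen-binding Sparc (84.3 and 93.4 TPM), was the lower one, and Sparcl1 had 47.3 and 42.5 TPM. Of 21 genes that mature and crosslink collagen, 6 were higher and 2 lower (10 and 0 with spike-in scaling), none by 2-fold. The list median log2 ratio was -0.01 in TPM. In spike-in scaled counts it was 0.22, beside 0.23 over all genes tested. P4hb, a subunit of prolyl hydroxylase, had 93.1 and 83.7 TPM and the collagen chaperone Serpinh1 had 29.7 and 30.8 TPM.

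Upstream genes of the tendon pathway were mixed. Of 13 tested genes on a list of TGF-beta and GDF signals, which includes BMP genes and an inhibitor, 5 were higher in replicate 2 and 4 lower. With spike-in scaling they were 9 and 2. The list median was -0.03, and 0.18 in spike-in scaled counts, where that of all genes tested was 0.23. The signal transducers Smad4 (29.7 and 30.2 TPM) and Smad3 (23.9 and 33.5 TPM) were lower in replicate 2, and the ligand Bmp4 (3.30 and 1.27 TPM) was 2.47-fold higher. Of 10 transcription regulators of tendon, 3 were higher and 3 lower (8 and 2 with spike-in scaling, 4 and 2 with total counts). The early response gene Egr1, which is also a tendon regulator, had 6.44 and 1.12 TPM, 5.44-fold higher. Egr2 was 3.22-fold and the hedgehog factor Gli1 2.47-fold higher, from 51 and 14 and from 42 and 15 counts. Among the lower ones were the transcriptional cofactor Eya1 (14.3 and 17.1 TPM) and the homeobox gene Six2 (9.37 and 14.97 TPM).

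Of 8 other genes enriched in tenocytes, 2 were higher in replicate 2 and 2 lower (5 and 2 with spike-in scaling). Tppp3, a marker of the tendon sheath, had 23.9 and 12.9 TPM, a ratio of 1.68, while the protease Htra1 had 14.4 and 24.5 TPM, a ratio of 0.560. Of 13 genes of the myotendinous junction, where fibre ends anchor in tendon, 7 were higher and 4 lower (10 and 1 with spike-in scaling). Xirp1, an actin-binding protein, had 249 TPM in replicate 2 and 21.1 TPM in replicate 1, 11.6-fold higher, and Ankrd1 was 10.5-fold higher at 13.3 and 1.22 TPM. The integrin chain Itgb1 had 72.2 and 63.9 TPM. Col22a1, the collagen of the junction itself, named here after its values were seen, had 3.02 and 3.03 TPM.

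**Figure D5:**
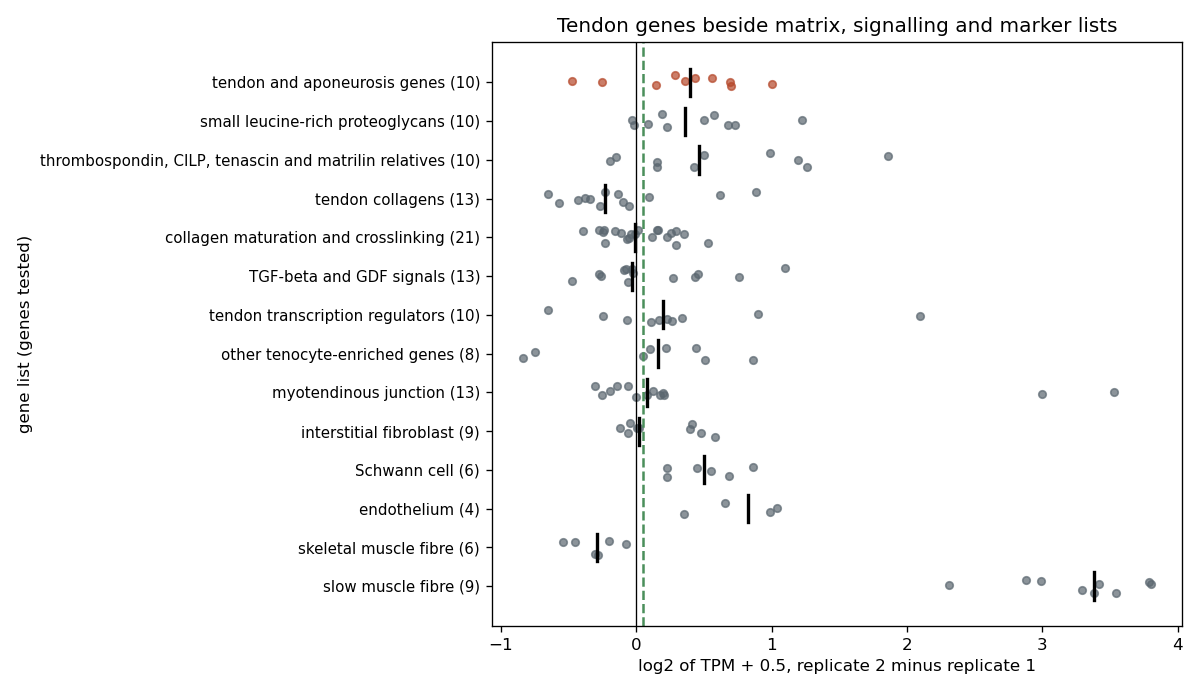
Log2 of TPM + 0.5 in replicate 2 minus replicate 1 for each tested gene of the tendon genes, of 8 related lists and of 5 marker lists, with each list's median as a black bar and the median of all genes tested as a dashed line. The tendon genes have a median of 0.40, the tendon collagens -0.23 and the slow fibre markers 3.38.

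Markers of other cells also differed between the libraries, and their part in the tendon gene ratios was not tested. All 9 slow fibre markers were at least 2-fold higher in replicate 2, with a summed level of 2369 TPM in replicate 2 and 222 TPM in replicate 1, led by Myl2 (564 and 40.0 TPM, 14.5-fold) and Myl3 (363 and 36.5 TPM, 9.61-fold). All 6 listed markers of skeletal muscle fibres, which include genes of fast fibres, were lower, with sums of 72120 and 91234 TPM. Of 9 interstitial fibroblast markers, 5 were higher and 2 lower (7 and 0 with spike-in scaling, 5 and 1 with total counts). The higher ones had ratios from 1.13 to 1.46 and the lower ones 0.891 and 0.930. The sums of 372 and 367 TPM were close, but most of both was Gsn (242 and 252 TPM), a lower one. Smoc2 followed at 30.2 and 31.1 TPM. Schwann cell markers were higher in 5 of 6, with sums of 42.8 and 29.4 TPM, led by Pmp22 (14.2 and 9.55 TPM) and Mbp (11.5 and 9.73 TPM), and Prx (2.07-fold) and Sox10 (2.45-fold) passed 2-fold. All 4 endothelial markers were higher, with sums of 44.3 and 28.0 TPM, led by Cdh5 (17.0 and 13.2 TPM) and Pecam1 (14.9 and 9.25 TPM), and Kdr (2.13-fold) and Cldn5 (2.18-fold) passed 2-fold. All 3 smooth muscle markers were higher, with sums of 47.6 and 32.3 TPM, led by Acta2 (34.6 and 24.8 TPM) and Myh11 (10.3 and 6.57 TPM), and Cnn1 (2.03-fold) passed 2-fold.

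Chad, Comp, Prg4 and Cilp2 are also known from cartilage and joints, so markers of those tissues were read in the same libraries. The 10 cartilage markers summed to 1.69 TPM in replicate 2 and 2.78 TPM in replicate 1. Of the defining ones, Acan had 3 and 0 counts, Col2a1 9 and 22 counts and Hapln1 2 and 1 counts, and Matn1 had none. Most of the sum was Col11a2, at 1.22 and 1.84 TPM, and Cnmd followed at 0.07 and 0.44 TPM. Col11a2 averaged more than Cilp2 and Mkx, while each of the other 9 markers lay at or under 0.44 TPM in both libraries. Of the 3 tested, Col2a1 and Col11a2 were lower in replicate 2 (1 of them with spike-in scaling). Of 6 bone markers, Bglap, Ibsp and Sp7 had no counts, and the list's sum of 10.2 and 5.16 TPM was mostly Alpl (9.67 and 4.21 TPM), with Dmp1 at 0.37 and 0.68 TPM. Among 3 tested bone markers, 1 was higher and 1 lower (1 and 0 with spike-in scaling). Of 4 tested synovial lining markers, 1 was higher and 2 lower (2 and 0 with spike-in scaling, 1 and 1 with total counts). The 5 listed ones summed to 78.5 and 83.9 TPM, mostly from Clic5 (49.4 and 50.2 TPM) and Cd55 (26.2 and 31.6 TPM), the 2 lower ones. Which cells the RNA of Clic5 and Cd55 came from was not tested, so that sum is not a measure of synovial lining. Has2, the 1 higher, had 0.30 and 0.15 TPM from 43 and 19 counts. Has1, with too few counts to be tested, had 0.22 and 0.02 TPM.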

How the data were processed

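Total RNA sequencing was deposited for 2 libraries of 1 group, made from 300 ng of RNA each, per the labels. Assembly mm10 and GENCODE M21 are named per the lists of files, and the name of the alignment and quantification software is not given in the sources used here. In the authors' deposited gene table and first transcript table, derived from a transcriptome alignment, values are expected counts, which are reads shared out over genes or transcripts, and TPM over all entries, spike-ins included. The deposited percent of isoform use is the part of a gene's TPM that a transcript holds. The second transcript table, derived from the reads, gives estimated counts and TPM, summed here per gene.

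Counts were rounded, and 26248 tRNA entries, 96 spike-ins and a phage entry were left out of the tests. TMM factors and a common dispersion came from edgeR 4.0.16, size factors from DESeq2 1.42.0 and exact binomial tests from scipy 1.17.1. The binomial test was tried on simulated counts that held counting error only. That trial therefore does not cover the spread beyond counting noise in these libraries. Intervals are 95% Clopper-Pearson intervals and cover counting error only. A quasi-likelihood test was not possible with 1 group. Each SD is over n = 2 libraries. Ratios other than log2 values are of TMM-scaled counts or, where called level ratios, of TPM.

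The members and lists were chosen with earlier results of these data known. All members are named, and from each list its 2 most abundant genes and those called at 2-fold. Genes overlapping a member are named too. 1 gene that this rule would name is not reported here. 1 overlapping gene, with no counts, is not described. Col1a1, Six2, Col22a1, Has1, Has2 and the defining markers of cartilage and bone were named after their values were seen. With 2 libraries no likeness of pattern between genes could be measured. Protein sequences were not used here.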

Additional observations from a re-analysis of the deposited data

How the results depend on the processing

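Against 5 genes called higher, 1 called lower and 1 called at 2-fold in replicate 2, the exact test of edgeR at a common dispersion called 0, 0 and 0, and it called 1.47% of all genes higher and 0.354% lower. The number called lower was also 0 with total counts without the TMM factor, with spike-in scaling and with no filter on low counts, which removed Cilp2. Spike-in scaling called 7 higher, Tnmd and Scx among them, but moved the median log2 ratio of all genes tested to 0.23 and called 44.6% of them higher and 5.94% lower. The binomial alternatives all kept Fmod, Thbs4, Chad, Comp and Prg4 higher and Prg4 at 2-fold. They were DESeq2 size factors, total counts, spike-in scaling, no filter, a mean count of at least 100 (9 of the 10 genes tested) and the second quantification. The median log2 ratio of the 10 genes was 0.25 with a pseudocount of 5 and 0.56 with spike-in scaled counts, and it moved by under 0.1 with the other alternatives. The summed level was 233 TPM when rescaled over nuclear protein-coding genes, which changes what TPM is shared out over. In the second quantification the summed level was 148 TPM, and what made it higher there was not tested. Scx, Tnmd, Kera and Mkx had 52 to 183 counts in replicate 2 and intervals that include 1. Calls lower in replicate 2 and list calls under other scalings were examined after seeing the data. No paired analysis was possible because the series has 1 group.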
